A study of Mus musculus with 6 samples.

Results

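Intermediate filaments are the ropes of the cell skeleton: proteins with a long coiled rod that pair, bundle and anneal into filaments. Vimentin (Vim), nestin (Nes), glial fibrillary acidic protein (Gfap), desmin (Des), alpha-internexin (Ina) and the light and medium neurofilament chains (Nefl, Nefm) build filaments in the cytoplasm, and the set in use changes as a neural cell matures. Progenitors and glioma cells are known for vimentin and nestin, astrocytes for Gfap, muscle for desmin and neurons for internexin and neurofilaments. The lamins, A-type from Lmna and B-type from Lmnb1 and Lmnb2, line the inside of the nuclear envelope, and A-type lamin is known to stiffen the nucleus of a cell that squeezes through narrow gaps.

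These 10 genes were read by symbol from a deposited list of 45038 rows, and all 10 had 1 row each among the 44804 rows with an intact and unrepeated name. The 6 libraries came from mice 1157, 1168 and PDGF1, each with 1 circulating tumor cell (CTC, found in blood) and 1 tumor cell, whose title carries the letters GBM. The series text counts 6 single cells, though the sample labels use that word for CTCs alone. The labels name no genotype, driver, age or treatment. Below, each library is named by its mouse, as the 1157 CTC or the 1157 tumor cell. Levels are FPKM, which scale fragments by transcript length and library depth, so that genes can be set side by side within a cell. How evenly reads cover each transcript was not checked.

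The coding sequences of the members, which bear on how reads are divided among them, had only short stretches in common. Over all 45 pairs of the 10 coding sequences (GENCODE mouse release 21, GRCm38) the longest identical run was 30 bases, between Lmna and Lmnb2, and the median of the longest runs was 14. Among the cytoplasmic members the longest was 21 bases, between Gfap and Nefm, and Vim and Des shared 18.

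Depth could be read from the values themselves. Low FPKM values fell on steps, and the lowest step times the transcript length gave an estimated 25300000 mapped fragments for the 1157 CTC, 10800000 for the 1157 tumor cell, 29600000 and 52000000 for the CTC and tumor cell of 1168, and 40200000 and 38200000 for those of PDGF1. A background level was taken from the 1585 olfactory or vomeronasal receptors, genes of nose neurons, as their 99th percentile in each cell. It was 0.786 FPKM in the 1157 CTC, 0.135 in the 1168 CTC and 3.50 in the PDGF1 CTC, and 1.85, 1.60 and 7.03 in the matching tumor cells. Of named protein-coding genes, 43.1% reached 1 FPKM for the 1168 CTC and 49.9% for the 1168 tumor cell, against 4.85% to 16.0% in the other 4 cells. Summed FPKM ran from 46973 in the PDGF1 CTC to 727351 in the 1168 CTC. Named protein-coding genes held 11.8% and 85.0% of these sums. In mouse 1157 the sums were 236427 for the CTC and 80273 for the tumor cell, with shares of 51.8% and 17.9%. A difference in FPKM between cells can thus depend on the scaling.

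Vimentin was the highest cytoplasmic member in every cell but the PDGF1 tumor cell, where Des and Nefm were above it, and most other members reached 1 FPKM only where the library held many genes. Members at 1 FPKM or more numbered 6 for the 1168 CTC and 7 for the 1168 tumor cell. In mouse 1157 each cell had 1, which was Vim, and in mouse PDGF1 the CTC had 0 and the tumor cell 2, Des and Nefm. Above the receptor level of the same cell were 7 members in each 1168 cell, Vim and Des in the 1157 CTC, Vim alone in the 1157 tumor cell, and 0 in either PDGF1 cell. Of named protein-coding genes, 53.7% lay above that level in the 1168 CTC, 44.3% in the 1168 tumor cell and 1.45% to 13% in the others. The values of mouse PDGF1 are thus all within the range of the background genes.

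**Figure D1:**
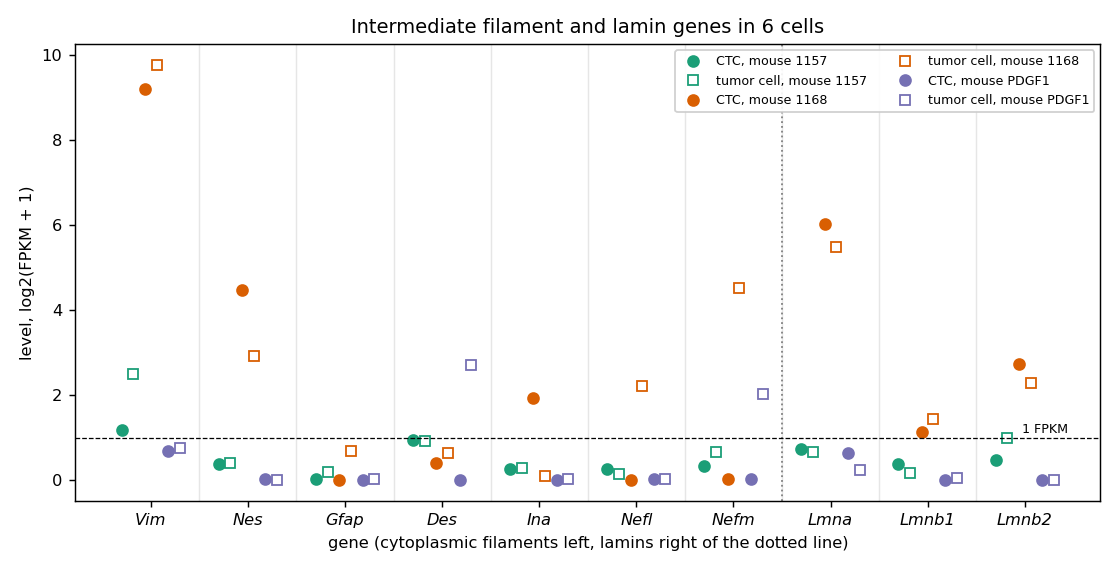
Level of the 10 genes, as log2(FPKM + 1), in each of the 6 cells; filled circles are CTCs, open squares are tumor cells, colours are mice and the dashed line is 1 FPKM. Both 1168 cells stand above the others for Vim, Nes, Lmna and Lmnb2, while Des is highest in the PDGF1 tumor cell.

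Vim (chromosome 2, 13573927 to 13582826, plus strand), the main filament of mesenchymal and progenitor cells, was at 1.26 FPKM in the 1157 CTC, 586 in the 1168 CTC and 0.608 in the PDGF1 CTC, and at 4.62, 870 and 0.679 in the matching tumor cells. Both 1168 cells were far above the rest, and each CTC was below the tumor cell of its own mouse, though the groups overlapped. Rescaled over named protein-coding genes, Vim in mouse PDGF1 turned to a CTC value higher by 0.92. An estimated 38058 fragments lay behind the value of the 1168 CTC and 54 behind that of the PDGF1 CTC. As a rank within its own cell Vim varied less. It exceeded 91.6%, 99% and 93.3% of named protein-coding genes in the CTCs and 97.6%, 99.5% and 86.5% in the tumor cells, in the same order of mice. Against receptor genes it exceeded 97.6% of them in the PDGF1 CTC and 94.1% in the PDGF1 tumor cell.

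Vim was the only member at 1 FPKM or more in at least 3 cells, and so the only one in the test across genes. The mean of log2(FPKM + 1) was 3.69 ± 4.78 (SD, n = 3) for CTCs and 4.33 ± 4.78 (SD, n = 3) for tumor cells. The difference of -0.65 (SE 3.84, adjusted p = 0.99994, limma with Benjamini-Hochberg adjustment) was far within this spread, which the 1168 cell of each group set. Within mice the differences were -1.31 for 1157, -0.57 for 1168 and -0.06 for PDGF1. With the mouse as a replicate block the SE was 1.42 (adjusted p = 0.995, limma). Over the whole list of genes limma called 0 of 4165, 0.0%, with 7 at an unadjusted p under 0.05. That fit leaves differences between mice in its error. With the mouse as a replicate block limma called 1, which was no member, with 217 at an unadjusted p under 0.05. The direction for Vim turned when single libraries were left out, from -3.40 without the 1168 CTC to 2.07 without the 1168 tumor cell. It also turned to 0.61 without the 1157 CTC and to 0.85 without the PDGF1 CTC. Each of these fits leaves 1 cell without its partner, so the shifts hold differences between mice and do not bear on the direction within a mouse. Without both cells of mouse PDGF1 the difference was -0.94. Rescaled over named protein-coding genes, with all 6 cells, it was -1.65. The 3 named genes nearest to Vim over the 6 cells, by mean absolute distance of log2(FPKM + 1) among 3762 candidates, were the cytokine gene Mif (0.21), Myeov2 (0.28) and Ifi27 (0.33).

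Nes (chromosome 3, 87971078 to 87980451, plus strand), a filament of neural stem and progenitor cells that copolymerizes with vimentin, was at 0.293 FPKM in the 1157 CTC, 21.3 in the 1168 CTC and 0.0121 in the PDGF1 CTC, and at 0.313, 6.56 and 0.0084 in the matching tumor cells. It was above the receptor level in mouse 1168 alone, where the CTC had the higher level, and the groups overlapped. The mean log2 level was 1.62 ± 2.48 (SD, n = 3) for CTCs against 1.11 ± 1.58 (SD, n = 3) for tumor cells (two-sided exact permutation test, p = 0.8, where 3 against 3 cells cannot go below 0.1). The sign of that difference turned, to -0.23, when FPKM was rescaled over named protein-coding genes, to -0.91 without the 1168 CTC, to -0.03 without the PDGF1 tumor cell and to -0.01 without mouse 1168. That rescaling also moved the median difference of all tested genes from -0.06 to -1.15. An estimated 3 and 2 fragments lay behind the values of mouse PDGF1, where 1 fragment is worth 0.00406 FPKM for the CTC and 0.00427 for the tumor cell.

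Within mouse 1168 the balance of Nes to Vim differed between its cells. The FPKM of Vim was 27.5 times that of Nes in the CTC and 133 times in the tumor cell, ratios that no rescaling of a library changes. Nes made up 3.50% of the summed FPKM of the 7 cytoplasmic members for the 1168 CTC and 0.726% for the 1168 tumor cell, while Vim made up 96.0% and 96.3%. Markers of oligodendrocyte progenitors, proliferating glial precursors, were summed at 298 FPKM in that CTC against 181 in the tumor cell. Of these 7 markers, all measured there, 4 were higher in the CTC by 1 or more in log2(FPKM + 1) and 2 lower, where 22.7% of all genes measured in this pair of cells were higher and 24.9% lower to that extent. Markers of some other cell types had lower sums in that CTC, with microglia and macrophage markers summed at 225 against 2280 FPKM, leukocyte markers at 5.14 against 303 and fibroblast markers at 0.137 against 29.6. Astrocyte markers had a higher sum, at 772 against 412 FPKM. Of the 5 measured there, 2 were higher in the CTC by 1 or more and 2 lower. The part of these cell types in the Nes and Vim levels was not tested.

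The neurofilament chain Nefm was the only member whose 3 CTC values all lay below its 3 tumor cell values. Nefm (chromosome 14, 68082590 to 68124846, minus strand) was at 0.256 FPKM in the 1157 CTC, 0.01 in the 1168 CTC and 0.0148 in the PDGF1 CTC, and at 0.590, 21.9 and 3.09 in the matching tumor cells. Only the value of the 1168 tumor cell was above the receptor level of its cell. In mouse 1157 an estimated 22 CTC fragments and 21 tumor cell fragments lay behind these values, as the CTC library was the deeper one.

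The mean log2 level of Nefm was 0.12 ± 0.18 (SD, n = 3) for CTCs and 2.41 ± 1.95 (SD, n = 3) for tumor cells, a difference of -2.29. The two-sided exact permutation test gave p = 0.1, the smallest that 3 against 3 cells allow, and an adjusted p of 1.0 over 16193 genes at 1 FPKM or more in any cell. Of those genes 3.19% reached that p, 2.89% with all CTCs below all tumor cells and 0.296% with all above. Nefm was the 1 gene to do so among the 9 members in that set. It reached 1 FPKM in tumor cells alone and so entered the set through the group where it was higher. Its p there is thus no support for a difference. It was not in the main test; without the filter on low values limma gave -2.29 (SE 1.25, adjusted p = 0.992). A pseudocount does not change the order of the cells, so only the rescalings could bring the groups to overlap. Members whose CTCs all lay below all tumor cells were Nefm and Gfap on the TPM scale. Rescaled over named protein-coding genes, they were Nefm, Gfap and Lmnb1. The Nefm difference was -1.18 without both cells of mouse 1168 and -1.23 without its tumor cell. As its groups do not overlap, leaving out cells could not turn its sign.

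Nefl, the light chain that starts neurofilament assembly (chromosome 14, 68083863 to 68089095, plus strand), was at 0.204 FPKM in the 1157 CTC, 0 in the 1168 CTC and 0.0145 in the PDGF1 CTC, and at 0.112, 3.61 and 0.0152 in the matching tumor cells. The 1168 tumor cell stood alone with an estimated 634 fragments, and the other 5 cells had from 0 to 17. The groups overlapped (two-sided exact permutation test, p = 0.5), and the difference of -0.70 became 0.01 without that cell. Nefm and Nefl are neighbours on opposite strands whose annotated exons overlap by up to 1108 bases through a longer Nefm transcript. The libraries were stranded per the labels, but the use of strand in counting is not given in those sources, so reads of the pair cannot be told apart there.

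Ina (chromosome 19, 47014698 to 47025327, plus strand), a neuronal filament made early in neuron development, went the other way within mouse 1168. It was at 0.196 FPKM in the 1157 CTC, 2.78 in the 1168 CTC and 0.00761 in the PDGF1 CTC, and at 0.225, 0.0758 and 0.0238 in the matching tumor cells. The 1168 CTC was the only cell above its receptor level, with an estimated 266 fragments against 13 in the 1168 tumor cell, and the groups overlapped (two-sided exact permutation test, p = 0.7). The mean difference of 0.58 became -0.01 without that CTC and -0.27 rescaled over named protein-coding genes. Exons of Ina overlap those of Nt5c2 on the opposite strand by up to 456 bases. Nt5c2, a nucleotidase gene, was at 12.1 FPKM for the 1168 CTC and 2.46 for the 1168 tumor cell, and its part in the Ina value was not tested.

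Neuron markers differed among themselves in mouse 1168. Among 7 markers, 3 were at 1 FPKM or more for the 1168 CTC and 4 for the 1168 tumor cell, with summed levels of 746 and 283 FPKM. Over the 3 CTCs the sum ran from 7.65 to 746 and over the 3 tumor cells from 4.52 to 283. Most of it in mouse 1168 was Gap43, a growth cone gene, at 675 FPKM for the CTC and 262 for the tumor cell, and Map2, a microtubule gene, at 64.4 and 12.5. Elavl4 was also higher in that CTC, at 6.11 against 2.89. Under 1 FPKM in both cells were the synaptic gene Snap25 at 0.0493 and 0.859, Syt1 at 0.0109 and 0.0484 and the nuclear marker Rbfox3 at 0.0807 and 0.375. Stmn2, an axon gene, was at 0.0717 and 3.66, higher in the same cell as Nefm and Nefl. In mouse PDGF1, where Nefm was higher in the tumor cell, Stmn2 was at 3.59 in the CTC against 1.94 and Elavl4 at 1.41 against 0.182. Rbfox3, at 1.23 against 0.145, and Map2, at 0.171 against 0.0819, were also higher in that CTC. Syt1 at 0.649 against 2.1, Gap43 at 0.57 against 0.769 and Snap25 at 0.0282 against 0.189 were higher in the tumor cell. Of these values only that of Stmn2 in the CTC was above the receptor level of its cell. The part of neuronal RNA in the filament values was not tested.

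Gfap (chromosome 11, 102887336 to 102900912, minus strand), the astrocyte filament, was under 1 FPKM in all 6 cells and under the receptor level of each. It was at 0.0152 FPKM in the 1157 CTC and listed at 0 in the other CTCs, and it was at 0.143, 0.609 and 0.00987 in the tumor cells of 1157, 1168 and PDGF1. An estimated 84 fragments lay behind the value of the 1168 tumor cell and at most 4 behind each of the others. The CTC was lower in 3 of 3 mice, at levels too low for the tests. Other astrocyte markers in mouse 1168 went both ways, with most lower in the CTC. Aldoc, a glycolytic enzyme, was at 613 FPKM for the CTC and 30.9 for the tumor cell, and the glutamate transporter gene Slc1a3 at 49.3 and 8.94. Lower in the CTC were S100b at 108 and 364, Slc1a2 at 0.934 and 2.38 and Gja1 at 0.585 and 3.99. So were Aldh1l1 at 0.0317 and 0.966 and the water channel gene Aqp4 at 0.00644 and 0.0509.

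Des (chromosome 1, 75360329 to 75368579, plus strand), the filament of muscle and some pericytes, was at 0.912 FPKM in the 1157 CTC, 0.325 in the 1168 CTC and 0.00818 in the PDGF1 CTC, and at 0.879, 0.562 and 5.57 in the matching tumor cells. Its highest value, in the PDGF1 tumor cell, rested on an estimated 644 fragments, stood above 98.0% of named protein-coding genes of that cell and yet lay under the receptor level of 7.03. The groups overlapped (two-sided exact permutation test, p = 0.3). Smooth muscle and pericyte markers were summed at 0.0845 FPKM in that cell, with 0 of 7 at 1 FPKM or more and Tagln, Cnn1 and Myh11 listed at 0, and 3 skeletal muscle markers were summed at 0.135. In the 1168 tumor cell, where the smooth muscle list was summed at 55.0, with Tagln at 29.2 and Acta2 at 23.1, Des was at 0.562. Des and these muscle genes thus had their highest values in different cells. Exons of Des and the antisense gene Gm15179 overlap by 220 bases, and Gm15179 was listed at 0 in both PDGF1 cells.

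Among the lamins the A-type gene was the highest in 5 of 6 cells. Lmna (chromosome 3, 88480147 to 88509956, minus strand), which gives lamins A and C by splicing, was at 0.651 FPKM in the 1157 CTC, 63.6 in the 1168 CTC and 0.548 in the PDGF1 CTC, and at 0.579, 43.6 and 0.174 in the matching tumor cells. Each CTC was above the tumor cell of its own mouse, by 1.12, 1.46 and 3.15 times, but only the values of mouse 1168 were above the receptor level. This direction held in mice 1168 and PDGF1 alone on rescaled values: over named protein-coding genes the differences were -2.71 for 1157, 0.06 for 1168 and 2.67 for PDGF1. The groups overlapped, with mean log2 levels of 2.46 ± 3.08 (SD, n = 3) for CTCs and 2.12 ± 2.91 (SD, n = 3) for tumor cells (two-sided exact permutation test, p = 0.6). That test does not pair the cells of a mouse and so does not bear on the direction within mice. The difference of 0.33 became 0.01 on that rescaling, and turned to -0.40 without the 1157 tumor cell, -0.61 without the PDGF1 tumor cell and -1.45 without the 1168 CTC. Lmna exceeded 84.6%, 94.2% and 92.8% of named protein-coding genes in the CTCs and 73.8%, 93.9% and 73.1% in the tumor cells.

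Lmnb2 (chromosome 10, 80901203 to 80918245, minus strand), a B-type lamin that stays anchored in the membrane by its lipid tail, was at 0.379 FPKM in the 1157 CTC, 5.68 in the 1168 CTC and 0.0073 in the PDGF1 CTC, and at 0.999, 3.84 and 0 in the matching tumor cells. In the 1157 tumor cell it was the highest lamin, at 0.999 against 0.579 for Lmna, both under the receptor level of 1.85. Lmnb1 (chromosome 18, 56707813 to 56753424, plus strand), the other B-type lamin, was at 0.304, 1.18 and 0 FPKM in the CTCs in the same order and at 0.130, 1.71 and 0.0366 in the tumor cells. Both B-type genes were above the receptor level in the cells of mouse 1168 alone. The groups overlapped for both, with two-sided exact permutation p = 1.0 for Lmnb2 and 0.9 for Lmnb1. Their mean differences, -0.02 for Lmnb2 and -0.05 for Lmnb1, turned sign when either the 1157 CTC, the PDGF1 CTC or the 1168 tumor cell was left out, reaching 0.57 and 0.39 at most. Rescaled over named protein-coding genes, Lmnb2 was at -0.94, and Lmnb1 at -1.43 with all CTCs below all tumor cells.

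**Figure D2:**
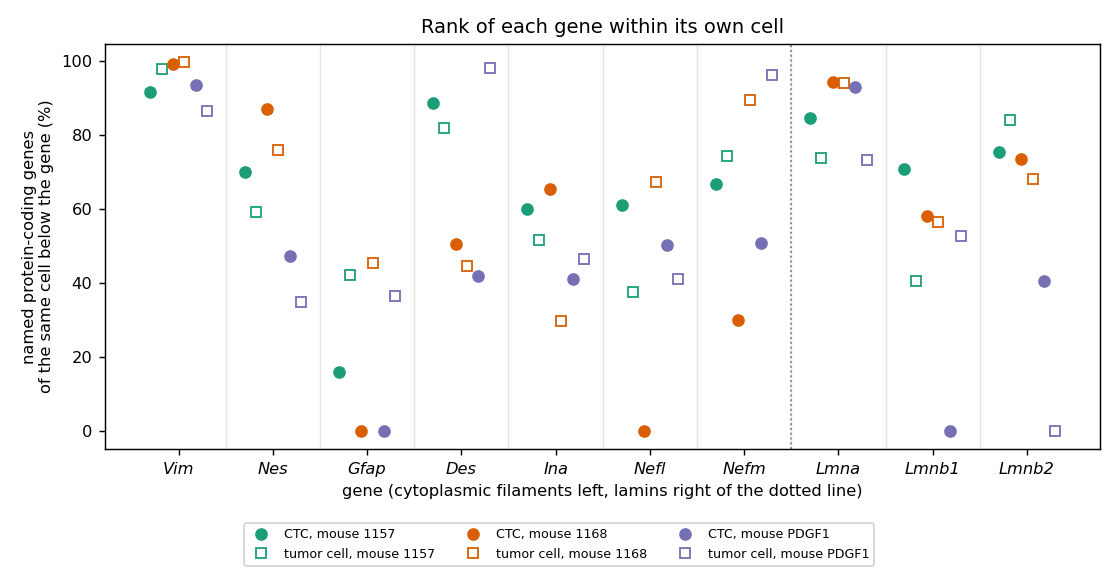
Share of named protein-coding genes of the same cell (%) that lie below each gene; filled circles are CTCs, open squares are tumor cells and colours are mice. Vim lies at 86.5% or more and Lmna at 73.1% or more in all 6 cells, while Nefm runs from 29.9% to 96.1%.

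The proportions of the lamins could be read in mouse 1168, where all 3 were above 1 FPKM. Lmna made up 90.3% of their summed FPKM for the CTC and 88.7% for the tumor cell. Lmnb2 made up 8.06% and 7.82%, and Lmnb1 1.67% and 3.48%. The ratio of Lmna to Lmnb2 was 11.2 for the CTC and 11.3 for the tumor cell, while that of Lmna to Lmnb1 was 53.9 and 25.5. An estimated 99 and 253 fragments lay behind the Lmnb1 values. The FPKM of Vim was 9.22 times that of Lmna in the CTC and 20.0 times in the tumor cell. No replicate bears on these ratios.

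The differences within mouse 1168 were set against all genes measured there, that is at 1 FPKM or more in either cell. Among the 10 members 8 were measured. Ina, by 1.81, and Nes, by 1.56, exceeded the tumor cell in the CTC by at least 1 in log2(FPKM + 1), while Nefl, at -2.20, and Nefm, at -4.51, were lower by that much. Of all 12396 genes measured 22.7% were higher and 24.9% lower to that extent, so 2 and 2 of 8 members are near the background. Lmna at 0.53, Lmnb2 at 0.46, Lmnb1 at -0.31 and Vim at -0.57 were nearer to the median of all genes, 0.04, and the median of the 8 was 0.08. Rescaled over named protein-coding genes, Vim was at -1.05. Nefm was the member farthest out, at percentile 0.839 of all genes measured in this pair of cells, with Ina at percentile 91.3 and Nes at 88.3.

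**Figure D3:**
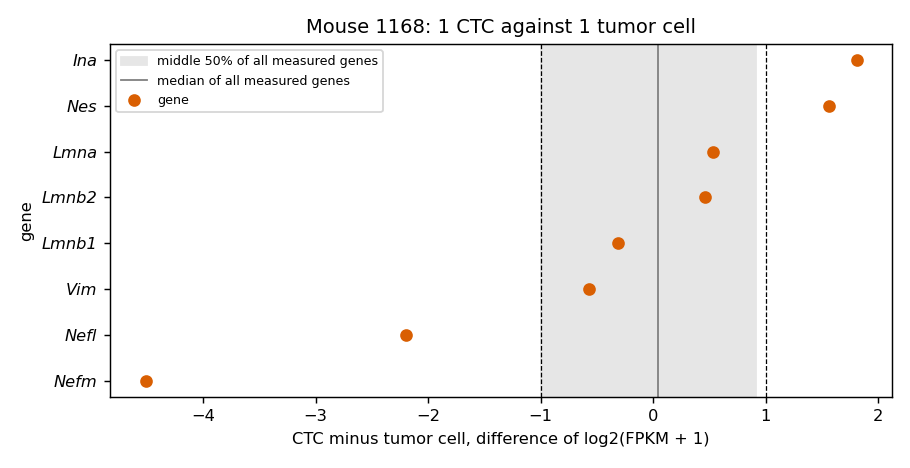
Difference between the 1168 CTC and the 1168 tumor cell in log2(FPKM + 1) for the 8 measured genes; the grey band is the middle 50% of all genes measured, and dashed lines mark -1 and 1. The lamins and Vim lie inside the band, Ina (1.81) and Nes (1.56) to its right, Nefl (-2.20) and Nefm (-4.51) to its left.

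In the other mice few members were measured. In mouse 1157 it was Vim alone, whose FPKM was 3.66 times lower in the CTC, a log2(FPKM + 1) difference of -1.31. It was -3.21 on the TPM scale and -4.83 rescaled over named protein-coding genes. There 37.1% of 5961 genes were lower by at least 1 and 29.0% higher. In mouse PDGF1 Des at -2.70 and Nefm at -2.01 were lower in the CTC, where 59.9% of 4042 genes were lower and 23.7% higher. A lower value in that CTC is thus the common case for its genes.

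Other filament genes were mostly low. Of 7 further cytoplasmic filament genes 2 reached 1 FPKM in any cell: Bfsp2, a lens filament gene, at 44.2 for the 1168 CTC and 16.0 for the 1168 tumor cell, and Prph, a filament of peripheral neurons, at 1.21 in the 1157 tumor cell. Bfsp2 was thus above Nes in both 1168 cells. Of 17 keratins, the filaments of epithelia, 3 reached 1 FPKM. Krt10 was at 11.0 and 2.68 in the CTC and tumor cell of 1168, Krt14 at 10.4 in the PDGF1 tumor cell, and Krt7 at 1.1 and 1.95 in the CTC and tumor cell of 1157. No gene of either list was in the test across genes.

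Partners of the lamins were more broadly present. Of 16 genes of the nuclear lamina and envelope 12 were at 1 FPKM or more for the 1168 CTC and 14 for the 1168 tumor cell, against 1 to 3 in the other 4 cells. Of 6 tested, limma called 0. Within mouse 1168, 4 of 14 measured had a CTC value higher by 1 or more and 0 a value lower to that extent, with a median of 0.04, equal to that of all genes, of which 22.7% were higher and 24.9% lower by as much. The share that was higher is near the background. Those were Sun1, which links the lamina to the cytoskeleton, at 35.3 against 3.78 FPKM, Lemd2 at 22.4 against 4.96, Banf1, a chromatin bridge, at 75.7 against 25.2, and Ankle2 at 6.33 against 2.38. Emd, emerin, was at 9.06 against 10.2, and Tmpo, which makes the lamina-associated LAP proteins, at 32.8 against 29.2. In the other mice Sun1 was lower in the CTC, at 0.631 against 3.71 FPKM for 1157 and 0.0198 against 3.28 for PDGF1. In mouse 1157, 2 of 5 measured partners were higher by at least 1 and 2 lower. In mouse PDGF1, 0 of 4 were higher and 3 lower, where 59.9% of all genes were lower to that extent.

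Genes listed for the processing of the lamin tail, not all of them known enzymes of it, were near the background, which was 22.7% higher and 24.9% lower. Within mouse 1168, 1 of 6 measured was higher in the CTC by at least 1 (Narf, 4.20 against 1.08 FPKM) and 1 lower (Icmt, a methyltransferase, 0.0800 against 1.69), with a median of 0.36. Fnta, a subunit of farnesyltransferase, was at 54.4 against 44.3, Rce1, which trims the tail, at 11.1 against 5.95, and Zmpste24, the prelamin A protease, at 4.42 against 7.80. Limma called 0 of the 2 tested.

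The small heat shock proteins that bind filaments had lower values in the 1168 CTC, by 1 or more for 4 of 4 genes, with a median of -2.89, where 24.9% of all genes were lower by at least 1. Cryab, a chaperone known to bind vimentin, desmin and Gfap, was at 110 FPKM in the CTC against 366, Hspb8 at 4.15 against 34.0, Hspb1 at 0.0449 against 19.9 and Hspb2 at 0.0988 against 7.86. In mouse 1157 the 2 measured were Cryab, at 1.04 against 1.78, and Hspb2, at 2.37 against 0.140, and in mouse PDGF1 Cryab was at 0.257 against 1.69. Limma called 0 of the 1 gene tested. In the same pair of 1168 cells, the CTC had lower values, by 1 or more, for 8 of 8 measured markers of microglia and macrophages, 3 of 4 of leukocytes (median -4.45), 4 of 4 of fibroblasts, 3 of 4 of smooth muscle and pericytes (median -2.99) and 2 of 2 of endothelium (median -1.74). Their part in the chaperone levels was not tested.

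Cytolinkers, large proteins that tie filaments to other structures, were at 17.7 FPKM or less in every cell. Within mouse 1168 Macf1 was at 9.31 FPKM in the CTC against 17.7, Plec, plectin, at 1.07 against 2.33 and Ppl at 0.0310 against 1.65. Of these 3, 1 (Ppl) was lower by at least 1, where 24.9% of all genes were. In mouse PDGF1 Macf1 was higher in the CTC, at 1.89 against 0.135, both under the receptor level. There 23.7% of genes were higher by at least 1. Dsp, desmoplakin, reached 1.5 in the 1157 tumor cell. Of 10 kinases that phosphorylate filaments or lamins, 0 were higher and 3 lower by at least 1 in the 1168 CTC, with a median of -0.19, against 22.7% and 24.9% of all genes. Cdk1, which phosphorylates lamins at mitosis, was at 5.44 against 20.2 FPKM, while Pak1 at 27.8 against 16.2 and Prkaca at 11.7 against 12.1 differed by less, and the difference for Rock1 was 0.87. Limma called 0 of the 6 kinases tested and 0 of the 1 cytolinker tested.

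**Figure D4:**
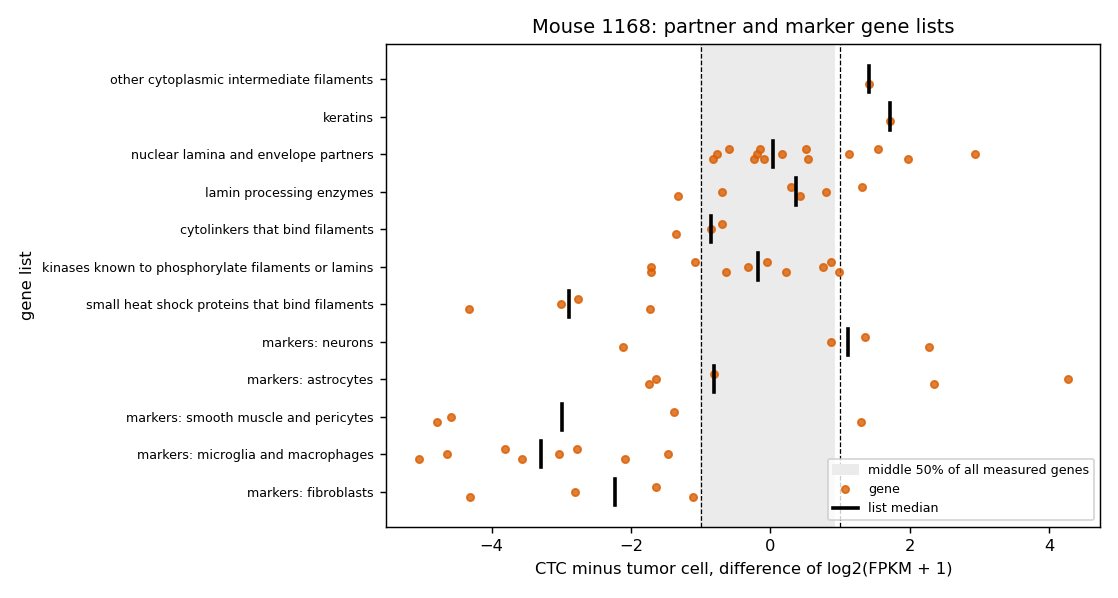
Difference between the 1168 CTC and the 1168 tumor cell in log2(FPKM + 1) for genes of each list measured there; points are genes, black bars list medians, the grey band the middle 50% of all genes and dashed lines -1 and 1. Small heat shock genes (median -2.89) and microglia markers (median -3.30) lie left of the band, and lamina partners centre on 0.04.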

How the data were processed

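RNA of 6 mouse cells was amplified linearly in repeated rounds and made into stranded libraries, per the labels' protocols. The authors deposited FPKM values in 1 file. STAR 2.4.2a, Cufflinks 2.2.1 and GRCm38 stand in the submitters' processing notes; the handling of multi-mapping reads and of strand is not given there. Of 45038 rows, 27 with a name turned into a date and 207 with a repeated name were left out. GENCODE mouse release 21 gave gene classes (18748 named protein-coding genes), coordinates and coding sequences.

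Depth was estimated in genes with 1 annotated transcript over 2000 bases, from the most frequent value of FPKM times length, taken as 1 fragment; 81.0% to 88.0% of low values then lay within 0.1 of a whole number. Fragments of a member used its principal transcript. They are amplified copies, not molecules, so no counting interval is given.

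CTCs (3) and tumor cells (3) were compared on log2(FPKM + 1) by limma 3.58.1 (R 4.3.3) with a variance trend, for the 4165 genes that reached 1 FPKM in 3 or more cells, Benjamini-Hochberg adjusted at 0.05, and by two-sided exact permutation tests; limma was tested on simulated data. Alternatives were another pseudocount (0.1), no or a stricter filter (5 FPKM), rescaling (TPM, over named protein-coding genes, quantiles), no trend, the mouse as a block and left-out cells or mice. Differences are CTC minus tumor cell, and the pseudocount understates those of low genes. Within a mouse there is no replicate and no test. Cells of 1 mouse are paired by the labels: deviations from group means correlated at 0.178, 0.689 and 0.428 across genes for 1157, 1168 and PDGF1. All 10 members were named, with the 4 genes of highest mean FPKM of each list and the 3 genes nearest to a tested member; other list genes were named after their values were seen. The members and lists were chosen with earlier results of these data known. Of the list genes, 3 (Dst, Tubb3 and Acta1) had no row with a single name and were not used. Other steps ran in Python 3.11.15 (numpy 2.4.6, pandas 2.3.3, matplotlib 3.10.9).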

Additional observations from a re-analysis of the deposited data

How the results depend on the processing

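With 3 cells a group and a spread of several log2 units, the mean difference kept its sign under every alternative run for Nefm and Des alone. Gfap was only rescaled. For Nefm, whose groups do not overlap, no pseudocount or left-out cell could have turned the sign. For Des the difference was -0.11 without mouse PDGF1, whose tumor cell value lay under the receptor level. In mouse 1157 Des was higher in the CTC, at 0.912 against 0.879 FPKM. The number of genes called was 0 and became 1 with the mouse as a replicate block and 1 when rescaled over named protein-coding genes, neither a member; with the replicate block Vim stayed at -0.65 (adjusted p = 0.995, limma; 0.912 to 1.0 over its alternatives). Rescaled over named protein-coding genes, Nes turned to -0.23 and Ina to -0.27. Leaving out single cells or whole mice gave ranges of -3.40 to 2.07 for Vim, -0.91 to 1.42 for Nes, -0.03 to 0.94 for Ina, -1.10 to 0.06 for Nefl, -1.45 to 2.01 for Lmna, -0.36 to 0.39 for Lmnb1 and -0.85 to 0.57 for Lmnb2; for Nefm it was -3.26 to -1.18 and for Des -1.47 to -0.11. Where 1 cell of a mouse is left out, its partner stays in, so these ranges also hold differences between mice. Vim could not be fitted without mouse 1157, without mouse 1168 or with a filter at 5 FPKM, where it missed the filter. At 5 FPKM in place of 1, the members counted were 0 in both cells of mouse 1157, 4 in the 1168 tumor cell and 1 in the PDGF1 tumor cell; above the receptor level they were 2 in the 1157 CTC and 0 in the PDGF1 tumor cell. Within mice, 32 of 33 recomputed differences kept their sign and their side of 1. These came from the 11 differences in which the member was at 1 FPKM or more in either cell. Below that level some turned when rescaled over named protein-coding genes. Among them were Lmna at -2.71, Lmnb1 at -1.52 and Nefl at -1.72 in mouse 1157, and Vim at 0.92 in mouse PDGF1. In mice 1157 and PDGF1 the receptor level lies above most member values.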
